A study of Rattus norvegicus with 6 samples.

Results

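Cells make cholesterol from acetyl-CoA through the mevalonate pathway, which leads over farnesyl diphosphate to squalene, then to lanosterol, and from lanosterol through a chain of demethylations, isomerisations and reductions to cholesterol. When sterols in the endoplasmic reticulum are low, the escort protein Scap carries the membrane-bound SREBP transcription factors to the Golgi, where proteases release their active part, and Insig proteins hold Scap back when sterols are plentiful. Neurons need sterols and fatty acids for axonal and synaptic membrane, and cultured retinal ganglion cells are known to use cholesterol that glia release in apolipoprotein E particles. The genes described here are 30 genes of cholesterol and fatty acid synthesis, sterol sensing and sterol transport. They were taken by symbol from a fixed list of names, out of 17366 transcripts in the deposited table, and all 30 were found there. Of the 30, 29 passed a filter on low values (FPKM 1 or more in 3 or more libraries) and were tested among 10390 genes. The gene that did not pass was Elovl6, which elongates saturated and monounsaturated fatty acids.

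The study asked how the secreted protein Chrdl1 (chordin-like 1, an antagonist of bone morphogenetic proteins) changes the transcriptome of retinal ganglion cells, the output neurons of the retina. Rat retinal ganglion cell cultures (Sprague Dawley, labelled P5, kept 10 days in culture) received 1 µg/ml Chrdl1 for 12 h in 3 libraries, against vehicle (0.1% BSA in 4 mM HCl) in 3 libraries. One label, on RNA extraction, mentions visual cortex, while all others name retinal ganglion cell cultures. The title of each library ends in 1 of 3 numeric codes, and each code occurs once in each group. Libraries that share a code are called pairs A, B and C, by rising code. What a code stands for is not stated, and neither is a separate culture or animal for each library. The p-values therefore reflect only how far these particular libraries scatter, which may be technical. Levels are FPKM, reads per kilobase of transcript scaled to library size, so that genes can be compared per length.

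The steps between read values showed that the Chrdl1 libraries of pairs A, B and C held 23343400, 22870500 and 24198700 reads, and the vehicle libraries 24482300, 14546600 and 26551800. The vehicle library of pair B was the shallowest. Each of the 29 tested genes rested on at least 121 reads in its poorest library (Hsd17b7) and at most 12632 in its richest (Acly). All 13 retinal ganglion cell markers found in the table passed the filter.

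The cultures held transcripts for nearly every step of cholesterol synthesis, several at high levels. Which cells of the cultures they came from was not tested. The median gene of the 29 had a mean of 23.6 FPKM over the 6 libraries, against 12.9 FPKM for all tested genes. The highest was Hmgcs1, the cytosolic HMG-CoA synthase early in the mevalonate pathway, with a mean of 127 FPKM, which placed it 345th of 10390. Acly, which makes cytosolic acetyl-CoA from citrate, followed with 114 FPKM, then the farnesyl diphosphate synthase Fdps with 101 FPKM. Squalene synthase (Fdft1) and squalene epoxidase (Sqle) stood at 84.1 and 84.0 FPKM. In all, 9 of the 29 lay among the top 10% of tested genes by level, the others of the 9 being Msmo1, Cyp51, Pmvk and Sc5d. The lowest tested levels were those of the transcription factor Srebf1 at 4.56 FPKM, the 3-ketosteroid reductase Hsd17b7 at 4.96 FPKM and the sterol carrier Stard4 at 7.45 FPKM.

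Elovl6 had at most 1 read in any library. It is listed at 0 FPKM in every Chrdl1 library and in the vehicle libraries of pairs B and C, and at 0.016 FPKM in that of pair A. The table gives Elovl6 2 copies in the genome, and of the 558 transcripts with 2 or more copies 76.0% are listed at 0 in all libraries, against 16.5% of the 16808 transcripts with 1 copy. No level is therefore stated for Elovl6.

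**Figure D1:**
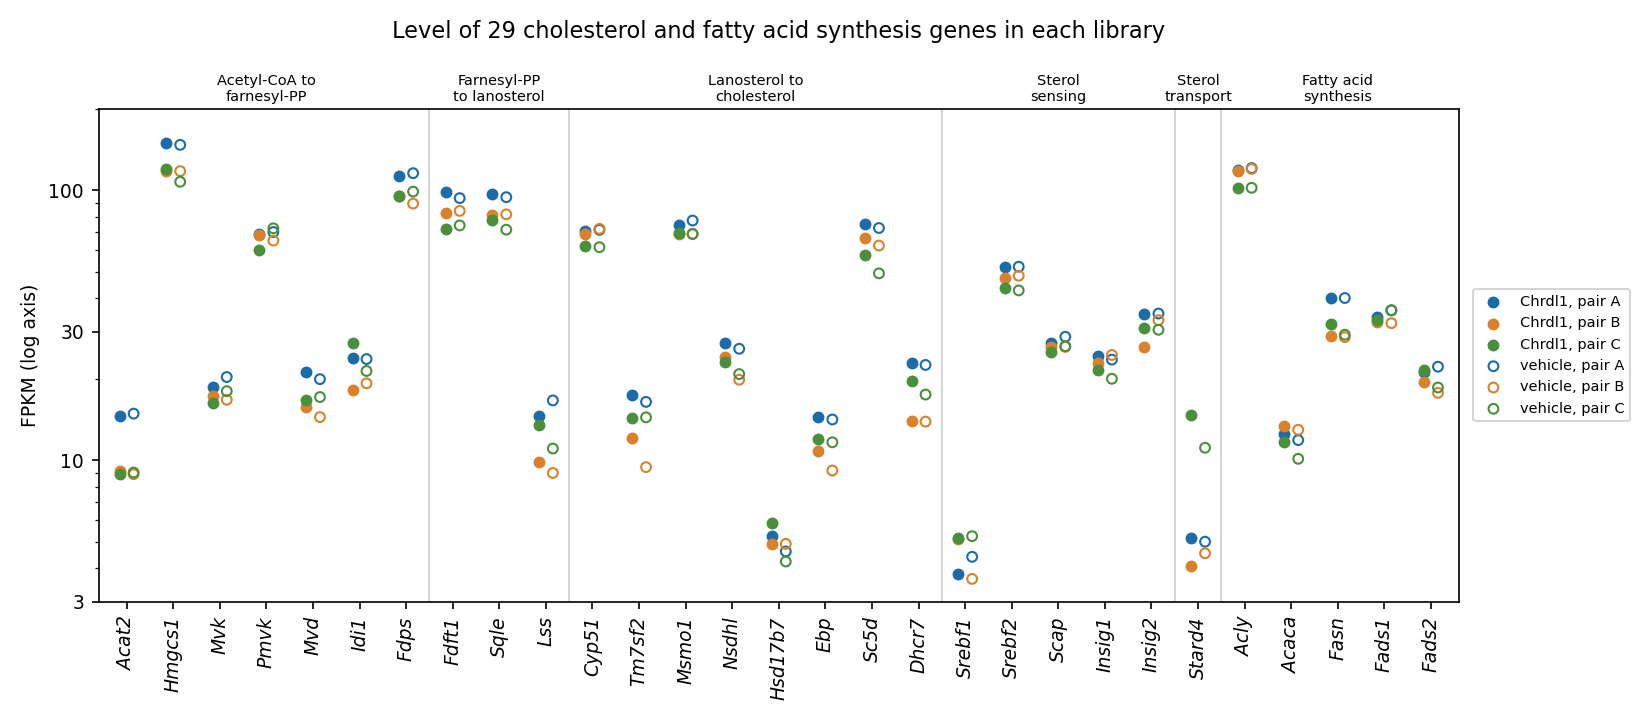
Level of each of the 29 tested genes in each library, in FPKM on a log axis, grouped by step of the pathway; filled points are Chrdl1 libraries, open points vehicle libraries, and colours mark pairs A, B and C. Hmgcs1 and Acly sit highest and Srebf1 and Hsd17b7 lowest, and filled and open points of 1 colour lie close together, while pair A (blue) lies above the other pairs for most genes.

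The promoters of 4 genes are shown because 3 of the genes were highest in pair A and 1 was not, as described further on. The RefSeq promoter table (build GRCr8) held 23 of the 30 genes, and each sequence is the 250 bases before the annotated start, 5′ to 3′ on the strand of the gene. Capitals mark CCAAT or its reverse complement, the box bound by NF-Y, a factor known to act beside SREBP at sterol-responsive promoters. Hmgcs1 (chr2:53382054-53382303, plus strand) and Lss (chr20:12118231-12118480, minus strand) were highest in pair A, as was Dhcr7 (chr1:208444184-208444433, plus strand), and Idi1 (chr17:66547525-66547774, minus strand) was not.
Hmgcs1: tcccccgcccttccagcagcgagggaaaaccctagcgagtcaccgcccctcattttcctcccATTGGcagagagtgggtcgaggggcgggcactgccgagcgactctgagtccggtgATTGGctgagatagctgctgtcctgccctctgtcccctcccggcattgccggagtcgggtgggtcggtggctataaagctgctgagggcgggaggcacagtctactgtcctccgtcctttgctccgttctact
Lss: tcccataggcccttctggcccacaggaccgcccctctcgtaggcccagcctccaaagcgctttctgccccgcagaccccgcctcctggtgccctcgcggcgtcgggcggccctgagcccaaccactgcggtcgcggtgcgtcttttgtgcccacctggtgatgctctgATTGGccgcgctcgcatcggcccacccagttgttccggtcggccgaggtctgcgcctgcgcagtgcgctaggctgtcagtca
Dhcr7: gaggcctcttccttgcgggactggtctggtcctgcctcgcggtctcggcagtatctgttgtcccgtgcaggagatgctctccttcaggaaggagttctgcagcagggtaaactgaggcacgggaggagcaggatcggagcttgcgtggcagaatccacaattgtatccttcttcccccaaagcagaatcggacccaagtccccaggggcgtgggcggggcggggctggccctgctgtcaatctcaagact
Idi1: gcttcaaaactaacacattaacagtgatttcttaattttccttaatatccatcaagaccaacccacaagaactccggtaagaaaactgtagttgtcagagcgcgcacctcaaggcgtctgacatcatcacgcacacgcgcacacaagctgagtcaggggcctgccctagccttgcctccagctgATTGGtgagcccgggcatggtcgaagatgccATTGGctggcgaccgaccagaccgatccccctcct
The window held 2 such boxes in Hmgcs1, 1 in Lss, 0 in Dhcr7 and 2 in Idi1. Searched on both strands, CCAAT was found in 18 of the 23 promoters (78.3%), against 34.7% of the 7959 tested genes with a promoter in the table. The GC box GGGCGG was in 20 of the 23 (87%), against 60.5% of tested genes. The letters TCACNCCAC, a core of the sterol regulatory element, were in 0 of the 23 and in 1.07% of tested genes. The 3 motifs were counted separately. A match is a run of letters and not a measured site, and a missing match says nothing of the factor.

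No gene of cholesterol or fatty acid synthesis passed the test between Chrdl1 and vehicle. Of all 10390 tested genes 0 (0%) had an adjusted p under 0.05 in the limma fit of log2(FPKM + 1), and 0 of the 29. At an unadjusted p under 0.05 limma gave 18 genes (0.173%), and again 0 of the 29, whose smallest adjusted p was 0.9998. With the pair as a block in the limma fit, 5.15% of tested genes and 1 of the 29, Nsdhl, had an unadjusted p under 0.05, and none an adjusted one. The differences were small, with log2 fold changes (Chrdl1 minus vehicle, on the log2(FPKM + 1) scale, which understates changes of low genes) between −0.10 for Insig2 and 0.18 for Hsd17b7. The FPKM values of the Chrdl1 and vehicle libraries overlapped for all 29, where 2.44% of tested genes had groups that did not overlap. In the median gene the 95% interval reached 0.32 to either side of the estimate, and 0.16 in the fit with the pair as a block. The SE values given for single genes below are from the fit without the block, so they include the differences between pairs.

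As a set, the 29 lay slightly above the other genes in the same comparison. Their median log2 fold change was 0.05, against −0.03 for all tested genes. It was positive for 20 of the 29 (69%), against 38.4% of all tested genes. In the pairs taken 1 at a time, the median of the 29 was 0.00081 in pair A, 0.011 in pair B and 0.031 in pair C, against −0.013, −0.022 and −0.055 for all tested genes. Higher in the Chrdl1 library of all 3 pairs were 7 of the 29 (24.1%, against 7.55% of tested genes), namely Nsdhl, Acaca, Sc5d, Ebp, Hmgcs1, Dhcr7 and Fasn. Lower in all 3 pairs was 1 (3.45%, against 19.5%), namely Acly. The median of the 29 turned to −0.05 without the Chrdl1 library of pair A and was 0.12 without the vehicle library of pair A. Those fits had no block and left the codes unequal between treatments, so differences between pairs entered them. Without both libraries of pair A the median was 0.057. In the same comparison, with 0 calls in any of these lists, the median log2 fold change was −0.35 over 11 tested microglia and macrophage markers (0 positive), −0.20 over 4 fibroblast, mural and endothelial markers (0 positive), −0.11 over 6 astrocyte and Müller glia markers (2 positive) and −0.06 over 13 retinal ganglion cell markers (2 positive). It was −0.06 over 15 genes of cholesterol storage and release (1 positive). The part of these cells in the shift of the 29 was not tested.

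**Figure D2:**
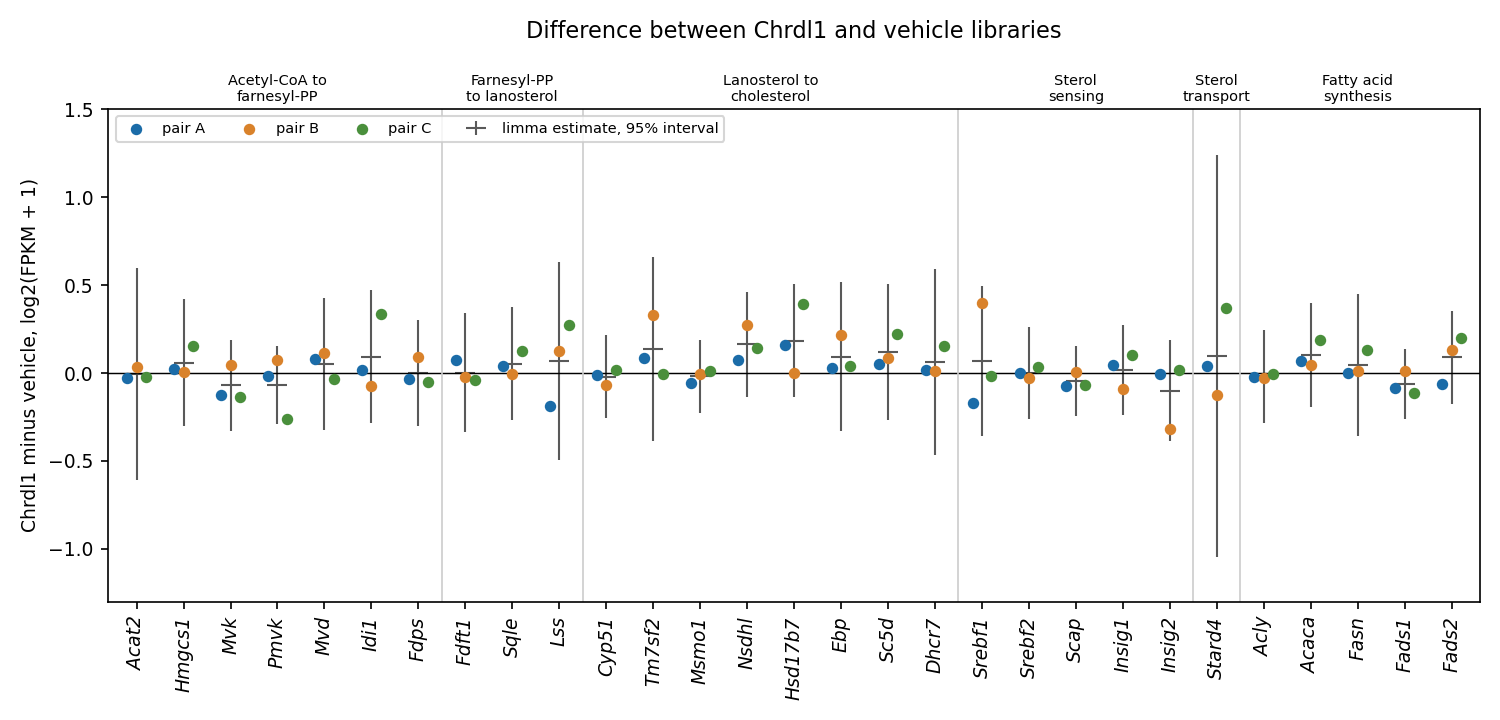
Chrdl1 minus vehicle for each tested gene, on the log2(FPKM + 1) scale; points are the 3 pairs, crosses the limma estimate with its 95% interval. Every interval of this fit, made without the pair as a block, includes 0, the widest being that of Stard4, from −1.04 to 1.24. With the pair as a block the interval of Stard4 ran from −0.14 to 0.33. That of Nsdhl then ran from 0.0061 to 0.32 and lay above 0, at an adjusted p of 0.872 in limma.

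In the first stretch, from acetyl-CoA to farnesyl diphosphate, 4 of 7 genes had a positive log2 fold change and the median was 0.0020. Hmgcs1 (chr2:52427579-52445082 in rn6, plus strand) had 150, 118 and 120 FPKM in the Chrdl1 libraries of pairs A, B and C, against 147, 118 and 108 FPKM in the vehicle libraries. Both libraries of pair A stood above the other 4, and Chrdl1 and vehicle libraries overlapped. Its means were 129 ± 17.7 FPKM with Chrdl1 and 124 ± 20.7 FPKM with vehicle (SD, n = 3 each). The log2 fold change was 0.06 ± 0.15 (SE). The other 6 genes of this stretch lay between −0.07 for mevalonate kinase (Mvk) and 0.09 for the isomerase Idi1, which converts isopentenyl diphosphate to dimethylallyl diphosphate.

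The 3 genes from farnesyl diphosphate to lanosterol all had small positive log2 fold changes. Sqle, which oxidises squalene and is a rate-limiting step of the sterol branch, had 97.2, 81.1 and 78.0 FPKM in the Chrdl1 libraries, against 94.4, 81.5 and 71.6 FPKM in the vehicle libraries. The groups overlapped, and within each group pair A was highest and pair C lowest. The log2 fold change of Sqle was 0.05 ± 0.14 (SE). Fdft1 and lanosterol synthase (Lss) had 0.0028 and 0.07.

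The 8 genes from lanosterol to cholesterol had the highest median of any stretch with more than 1 gene, 0.11, and 6 of them were positive. Nsdhl, a sterol dehydrogenase that takes part in removing the methyl groups at carbon 4, had 27.3, 24.3 and 23.1 FPKM with Chrdl1 and 25.9, 19.9 and 20.9 FPKM with vehicle. Each Chrdl1 library stood above the vehicle library of its pair, though the groups overlapped. Its means were 24.9 ± 2.17 FPKM with Chrdl1 and 22.2 ± 3.22 FPKM with vehicle (SD, n = 3 each). The log2 fold change was 0.16 ± 0.13 (SE). In limma without the block the unadjusted p of Nsdhl was 0.24 and the adjusted p 0.9998.

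Sc5d, the lathosterol oxidase that places a double bond at carbon 5, had 75.1, 66.4 and 57.6 FPKM with Chrdl1 and 72.6, 62.5 and 49.3 FPKM with vehicle. It was higher with Chrdl1 in each pair by 0.05, 0.09 and 0.22 on the log2 scale, less than the spread between pairs. The log2 fold change was 0.12 ± 0.16 (SE).

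Ebp, the isomerase that moves the double bond from carbon 8 to carbon 7, had 14.5, 10.8 and 12.0 FPKM with Chrdl1, against 14.2, 9.18 and 11.7 FPKM with vehicle. Dhcr7, which makes cholesterol from 7-dehydrocholesterol, had 22.9, 14.1 and 19.7 FPKM with Chrdl1, against 22.6, 13.9 and 17.5 FPKM with vehicle. For both genes the order of the pairs was A, C, B within each group, and the groups overlapped. The log2 fold changes were 0.09 ± 0.18 for Ebp and 0.06 ± 0.22 for Dhcr7 (SE).

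Hsd17b7 had the largest estimate of the 29, 0.18 ± 0.14 (SE), from 5.26, 4.91 and 5.86 FPKM with Chrdl1 and 4.61, 4.91 and 4.23 FPKM with vehicle. Pairs A and C were higher with Chrdl1 and pair B was equal. The gene lies within a locus on the opposite strand, and no source used here says whether reads were counted by strand. The remaining genes of this stretch were Cyp51 (lanosterol demethylase) at −0.02, Msmo1 (methylsterol monooxygenase) at −0.02 and Tm7sf2 (a sterol reductase acting at carbon 14) at 0.13. Cyp51 and Fdps have processed pseudogenes in mammals, so that their levels are uncertain.

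Among the sensing genes, 3 of 5 had a positive log2 fold change, with a median of 0.00066. Srebf2, the SREBP that mainly drives cholesterol synthesis, had 52.2, 47.3 and 43.6 FPKM in the Chrdl1 libraries, against 52.2, 48.3 and 42.6 FPKM in the vehicle libraries. Within each group it stepped down from pair A to pair B to pair C, and the groups overlapped almost wholly. Its log2 fold change was 0.00066 ± 0.11 (SE).

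Srebf1, the SREBP gene that mainly drives fatty acid synthesis, had 3.80, 5.13 and 5.16 FPKM with Chrdl1 and 4.40, 3.65 and 5.25 FPKM with vehicle. The pairs disagreed, with differences of −0.17 in pair A, 0.40 in pair B and −0.02 in pair C. Srebf2 stood 8.13 to 13.8 times as high as Srebf1, per length, over the 6 libraries. The log2 fold change of Srebf1 was 0.07 ± 0.18 (SE).

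Scap, the SREBP escort, had 27.2, 26.4 and 25.3 FPKM with Chrdl1 and 28.7, 26.3 and 26.5 FPKM with vehicle, and it varied little between any 2 libraries. Insig1, itself a sterol-responsive SREBP target, had 24.4, 23.0 and 21.6 FPKM with Chrdl1 and 23.6, 24.6 and 20.1 FPKM with vehicle. Insig2, its less sterol-responsive relative, had 34.8, 26.4 and 30.9 FPKM with Chrdl1 and 35.0, 33.1 and 30.5 FPKM with vehicle. The Insig2 value of the Chrdl1 library of pair B was the lowest of the 6, and the other 5 lay between 30.5 and 35.0 FPKM. The log2 fold changes were −0.05 ± 0.08 for Scap, 0.02 ± 0.11 for Insig1 and −0.10 ± 0.12 for Insig2 (SE). Insig2 stood above Insig1 in every library, by 1.15 to 1.52 times per length.

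Stard4, a soluble protein that carries cholesterol between membranes, had 5.18, 4.08 and 14.7 FPKM in the Chrdl1 libraries of pairs A, B and C, against 5.0, 4.53 and 11.1 FPKM in the vehicle libraries. Both libraries of pair C were high and the other 4 low, in either group. The Chrdl1 mean was 8.0 ± 5.85 FPKM and the vehicle mean 6.89 ± 3.69 FPKM (SD, n = 3 each), and the log2 fold change was 0.10 ± 0.48 (SE).

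Of the 5 tested fatty acid genes 3 had a positive log2 fold change, and their median was 0.05. Acaca, acetyl-CoA carboxylase 1, had 12.5, 13.4 and 11.7 FPKM with Chrdl1, against 11.9, 13.0 and 10.1 FPKM with vehicle. Each Chrdl1 library was above its partner by 0.07, 0.05 and 0.19 on the log2 scale, and the groups overlapped. The log2 fold change of Acaca was 0.10 ± 0.13 (SE).

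Fasn, the fatty acid synthase that acts on the product of Acaca, had 40.0, 28.8 and 32.0 FPKM with Chrdl1 and 40.0, 28.6 and 29.2 FPKM with vehicle. Pair A was the high pair in both groups, and the Chrdl1 and vehicle libraries of pairs A and B were nearly equal. Its log2 fold change was 0.05 ± 0.17 (SE). Acly was −0.02, with 119, 118 and 102 FPKM with Chrdl1 and 121, 120 and 102 FPKM with vehicle. The desaturases Fads1 and Fads2, which make polyunsaturated fatty acids, had −0.06 and 0.09. The span of Fads2 holds the ferritin gene Fth1 on the opposite strand at a mean of 561 FPKM, so that the level of Fads2 is uncertain.

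Between the title codes many of the same genes passed the test, mostly in 1 direction. Of the 29, 17 (58.6%) had an adjusted p under 0.05 in limma's F-test between codes, where 4930 of 10390 tested genes (47.4%) did. Of these 17, 15 were highest in pair A, which is 51.7% of the 29, against 11% of all tested genes that were called and highest in pair A. The 15 were Acat2, Hmgcs1, Mvd, Fdps, Fdft1, Sqle, Lss, Tm7sf2, Nsdhl, Ebp, Sc5d, Dhcr7, Srebf2, Acly and Fasn. Called and highest in pair C were Stard4 and Idi1 (6.9%, against 22.8% of tested genes), and called and highest in pair B were 0 (against 13.7%). Idi1 was nearly level between pairs C and A, at means of 24.4 and 23.9 FPKM, with pair B lowest at 18.8 FPKM. In these bulk libraries fewer cells of a type and less RNA per cell cannot be told apart.

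Called or not, 24 of the 29 had their highest mean in pair A (82.8%, against 25.4% of tested genes). The exceptions were Acaca, highest in pair B, and Stard4, Idi1, Hsd17b7 and Srebf1, highest in pair C (13.8%, against 41.4% of tested genes). Both libraries of pair A stood above the other 4 for 18 of the 29 (62.1%, against 13.6%). The same was seen within each treatment, but libraries that share a code deviate together, so the treatments are not independent observations of it. Among Chrdl1 libraries 23 of the 29 were highest in pair A (79.3%, against 28.6%), among vehicle libraries 21 (72.4%, against 21.4%), and 19 in both (65.5%, against 15.9%). Of the Chrdl1 libraries, that of pair B was highest for 1 of the 29 (against 35% of tested genes) and that of pair C for 5 (against 36.4%). Of the vehicle libraries, that of pair B was highest for 4 of the 29 (against 32.3% of tested genes) and that of pair C for 4 (against 46.3%).

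**Figure D3:**
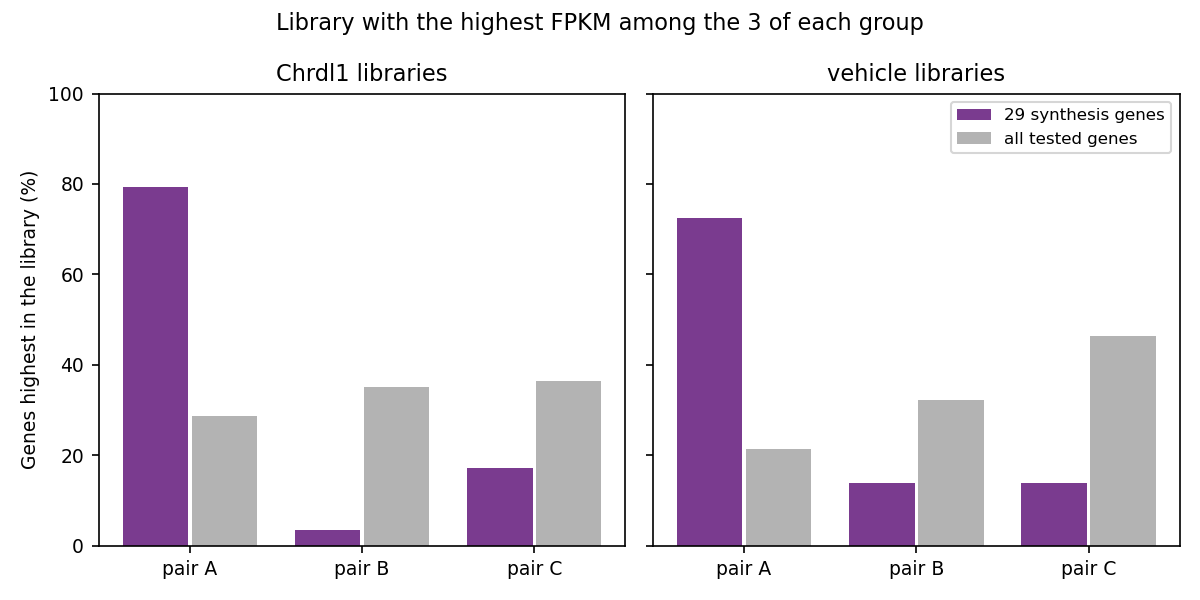
Share of the 29 genes (purple) and of all 10390 tested genes (grey) that had their highest FPKM in the library of pair A, B or C, within the Chrdl1 libraries (left) and within the vehicle libraries (right). For the 29 genes the share in pair A was 79.3% with Chrdl1 and 72.4% with vehicle, against 28.6% and 21.4% of all tested genes.

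The size of the difference was modest. The median of the 29 was 0.20 higher in pair A than in pair B and 0.22 higher in pair A than in pair C on the log2(FPKM + 1) scale, against −0.03 and −0.07 for all tested genes. After median centring of the libraries the medians of pair A minus pair C were 0.34 for the 29 and 0.04 for all tested genes. With quantile normalization they were 0.25 and 0.03. The medians of pair A minus pair B were then 0.16 for the 29 and −0.03 for all tested genes, and with median centring 0.26 and 0.03. The summed level of the 30 genes was 1303, 1131 and 1115 FPKM in the Chrdl1 libraries of pairs A, B and C, against 1302, 1120 and 1082 FPKM in the vehicle libraries. Leaving out the 5 most abundant genes, it was 725, 636 and 647 FPKM with Chrdl1, against 730, 627 and 628 FPKM with vehicle. All listed transcripts together summed to 300432, 275049 and 285791 FPKM with Chrdl1, against 302709, 280190 and 307560 FPKM with vehicle. In both groups this total was also higher in pair A than in pair B, and the sums of the 30 were not scaled to it. With either library of pair A left out, which leaves 1 library in that code, fewer of the 29 were called. The median of pair A minus pair B was then 0.24 for the 29 and −0.03 for all tested genes without the Chrdl1 library of pair A. Without the vehicle library of pair A it was 0.16 for the 29 and −0.01 for all tested genes.

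**Figure D4:**
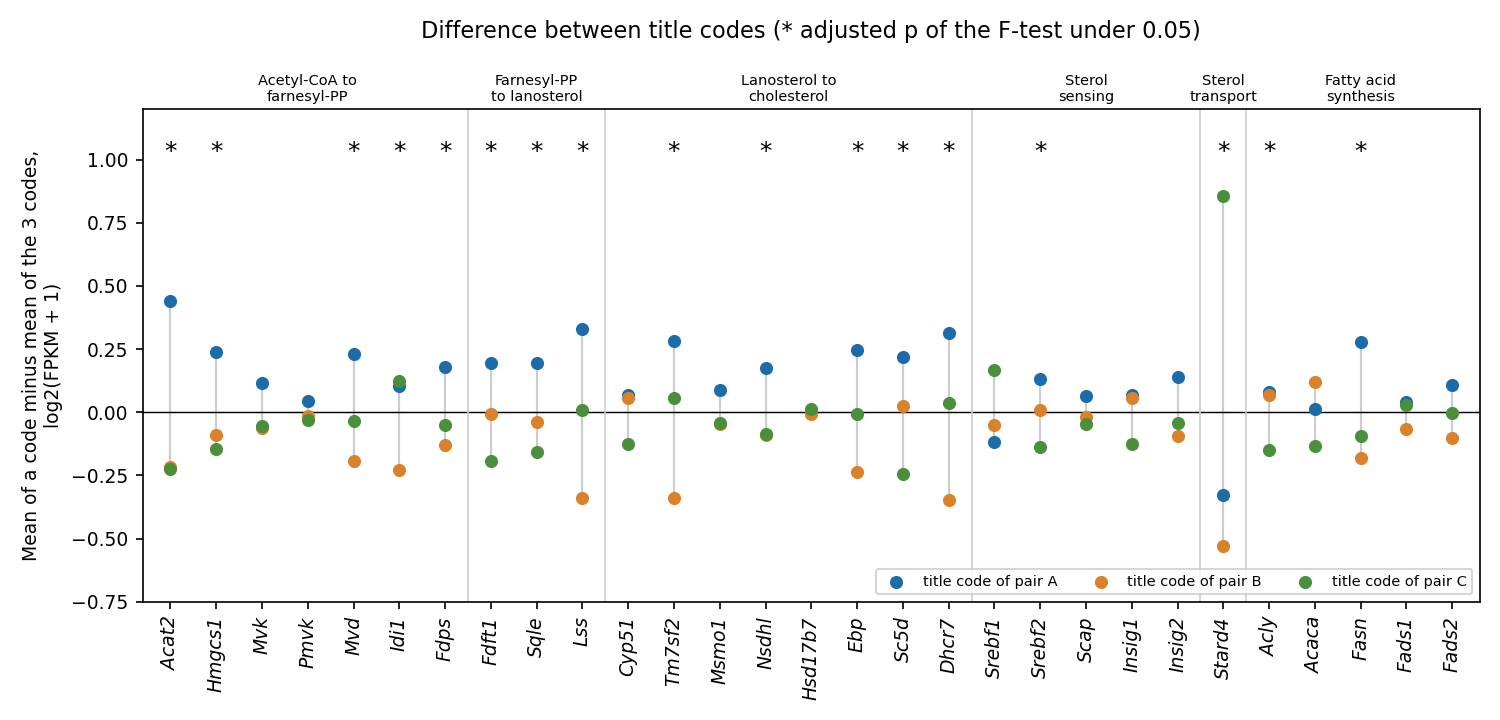
Mean of each title code minus the mean of the 3 codes for each tested gene, on the log2(FPKM + 1) scale, with asterisks where the adjusted p of limma's F-test was under 0.05. Pair A (blue) is the highest of the 3 for 24 of 29 genes, and Stard4 stands apart with pair C highest.

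The called genes were spread over the route. They were 5 of 7 from acetyl-CoA to farnesyl diphosphate, 3 of 3 from there to lanosterol, 5 of 8 from lanosterol to cholesterol, 1 of 5 sensing genes, the 1 transport gene and 2 of 5 fatty acid genes. Each count stands against 47.4% of all tested genes, a share near those of the lanosterol-to-cholesterol and fatty acid genes. Among the sensing genes it was Srebf2 that was called, with code means of 52.2 (A), 47.8 (B) and 43.1 FPKM (C) and an adjusted p of 0.031 in limma's F-test. Insig1, Insig2, Scap and Srebf1 did not pass the test.

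The 6 called genes with the widest range of code means were Stard4, Lss, Acat2, Dhcr7, Tm7sf2 and Ebp. Stard4 had the widest, 1.38 on the log2 scale, with code means of 5.09 (A), 4.31 (B) and 12.9 FPKM (C) and an adjusted p of 8.21e-06 in limma's F-test. Lss, which closes the ring system of lanosterol, had 14.6, 9.91 and 13.6 FPKM in the Chrdl1 libraries and 16.7, 8.99 and 11.1 FPKM in the vehicle libraries. Pair B was lowest and pair A highest in both groups, with a range of 0.67.

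Acat2, the cytosolic acetoacetyl-CoA thiolase that starts the route, had 14.6, 9.12 and 8.88 FPKM with Chrdl1 and 14.9, 8.90 and 9.03 FPKM with vehicle. Pair A alone was high, while pairs B and C were nearly equal, and the range was 0.66 with an adjusted p of 0.000254 in limma's F-test. Dhcr7, whose values are given with the lanosterol genes, also had a range of 0.66, with code means of 22.7, 14.0 and 18.6 FPKM. Tm7sf2 had 17.5, 12.1 and 14.4 FPKM with Chrdl1 and 16.5, 9.45 and 14.4 FPKM with vehicle, a range of 0.62 with pair B lowest. Ebp had a range of 0.48 with the pairs in the order A, C, B.

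**Figure D5:**
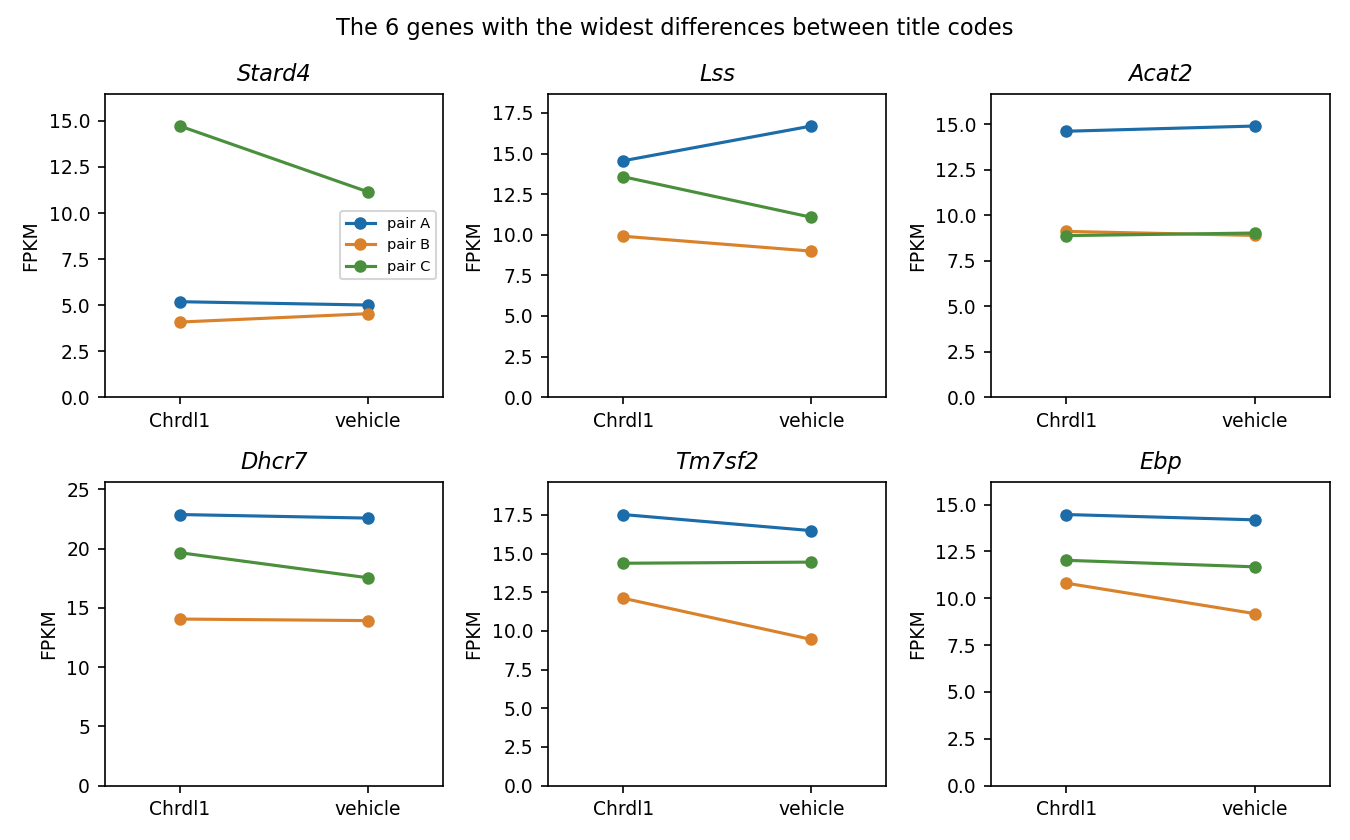
FPKM of the 6 called genes with the widest range of code means, in the Chrdl1 library (left) and the vehicle library (right) of each pair, joined by a line; axes start at 0. Pair A is highest for every gene but Stard4, which had 14.7 and 11.1 FPKM in pair C and at most 5.18 FPKM elsewhere.

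Idi1 was the second called gene not highest in pair A, with 24.0, 18.3 and 27.3 FPKM in the Chrdl1 libraries and 23.7, 19.3 and 21.4 FPKM in the vehicle libraries. Pair B was lowest in both groups, while the highest pair was C with Chrdl1 and A with vehicle. Idi1 lost its call without the Chrdl1 library of pair B, without the filter and with quantile normalization, and the start of Wdr37 overlaps that of Idi1 on the opposite strand. The calls of Acat2, Lss, Tm7sf2, Sc5d, Dhcr7 and Stard4 held in all 15 settings tried.

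Markers of other cells also differed between the codes, and their part in these differences was not tested. The 14 microglia and macrophage markers summed to 308, 24.0 and 391 FPKM in the Chrdl1 libraries of pairs A, B and C, against 369, 44.3 and 446 FPKM in the vehicle libraries. All 11 of them that were tested were called between codes (against 47.4% of tested genes). Of the 11, 10 had their highest mean in pair C (against 41.4%), while Cx3cr1 and P2ry12 were at 0 to 0.344 FPKM. The 13 astrocyte and Müller glia markers, of which 5 stayed under 1 FPKM in every library, summed to 1010, 131 and 1437 FPKM with Chrdl1 and 1239, 188 and 1662 FPKM with vehicle, most of it Apoe. The 12 fibroblast, mural and endothelial markers summed to 98.7, 12.7 and 163 FPKM with Chrdl1 and 107, 20.4 and 166 FPKM with vehicle. The 10 photoreceptor markers summed to 5.26, 3.88 and 53.3 FPKM with Chrdl1 and 6.28, 3.25 and 52.2 FPKM with vehicle, most of it Crx, and 6 of the 10 stayed under 1 FPKM in every library. The 11 amacrine and bipolar markers summed to 87.4, 109 and 139 FPKM with Chrdl1 and 87.7, 111 and 138 FPKM with vehicle. The 12 oligodendrocyte and Schwann cell markers, 8 of them under 1 FPKM in every library, summed to 33.2 to 37.9 FPKM over the 6 libraries. The 13 retinal ganglion cell markers summed to 2814, 2541 and 2381 FPKM with Chrdl1 and 2818, 2552 and 2670 FPKM with vehicle. Of these 13, 9 were called between codes (against 47.4% of tested genes). Highest in pair A were 4 of the 13 (against 25.4%), in pair B 7 (against 33.2%) and in pair C 2 (against 41.4%). The microglial, astrocyte and fibroblast lists were highest in pair C and lowest in pair B in both groups.

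Other genes of sterol and fatty acid metabolism, in lists separate from the 30, also had 0 calls between Chrdl1 and vehicle. Between codes, 4 of the 5 tested genes of sterol synthesis and uptake were called, against 47.4% of tested genes. Of these 5, 3 had their highest mean in pair A (against 25.4% of tested genes) and 2, Lbr and Acat1, in pair C (against 41.4%).

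Of 16 further tested fatty acid genes 9 were called between codes, where 47.4% of all tested genes were. Among them were the elongase Elovl5, with 129, 128 and 106 FPKM with Chrdl1 and 131, 148 and 111 FPKM with vehicle, and the desaturase Scd2, with 146, 101 and 114 FPKM with Chrdl1 and 138, 110 and 103 FPKM with vehicle. Elovl5 had its highest mean in pair B and Scd2 in pair A. Of 11 genes of the isoprenoid branches 2 were called (Rce1 and Zmpste24), and of 10 genes of SREBP processing and enzyme turnover 3 (Mbtps1, Erlin2 and Prkaa2). Of 15 tested genes of cholesterol storage and release 10 were called, and 9 of the 15 were highest in pair C, against 47.4% and 41.4% of tested genes. Apoe, the lipoprotein that carries cholesterol between cells, had 908, 58.9 and 1273 FPKM in the Chrdl1 libraries of pairs A, B and C, against 1133, 104 and 1490 FPKM in the vehicle libraries. Apoe was lowest in pair B and highest in pair C in both groups.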

How the data were processed

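Stranded mRNA libraries (RNeasy and Illumina kits) came from cultures given Chrdl1 (3 libraries) or vehicle (3 libraries), per the labels' protocols. Per the submitters' processing notes, FastQC, STAR 2.4.0k, HOMER 4.8.3 and the rn6 build were used. The authors deposited 1 table of FPKM per transcript, normalised by them to transcript length and library size. The annotation release, read filters and strand setting were not given in the sources used here.

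From the deposited FPKM, log2(FPKM + 1) was fitted with limma 3.58.1 in R 4.3.3 (trended prior, treatment only), for transcripts with FPKM 1 or more in 3 or more libraries, and p-values were adjusted over all 10390 by the Benjamini-Hochberg method, with calls at 0.05. Between title codes, limma's moderated F-test was taken from a fit of treatment and code. Deviations from the group means correlated at 0.82, 0.86 and 0.84 within pairs A, B and C. With any other code they correlated at most at −0.22. Subtracting the group means by itself pushes these values down when those within pairs are high. From the correlations within pairs the codes were taken to pair the libraries. The code was used as a replicate block in an alternative fit. The read total of each library was searched as the one at which FPKM, transcript length and total together gave whole reads. At the totals found, 99.6% to 100% of the values checked were whole. The reads recovered in this way were used in an alternative with voom. Reads on listed transcripts made up 62.7% to 65.8% of the totals. Intervals cover the spread between libraries. The fits were tested on simulated data with changes larger than any estimate for the genes described here, which says nothing of changes as small as those.

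The gene list, the other lists and the rules were chosen with earlier results of these data known. Values are given in full for the 6 genes of the list with the smallest unadjusted p among those with 1 sign in all 3 pairs, for 10 named regulators and enzymes, and for the 6 called genes with the widest range between codes; further values were picked after they were seen. Promoters came from RefSeq (GRCr8), and all table coordinates are in rn6. Alternatives were other pseudocounts, filters and scalings, voom and leaving out libraries. Some genes of the other lists are not reported here.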

Additional observations from a re-analysis of the deposited data

How the results depend on the processing

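The count of 0 of the 29 genes called between Chrdl1 and vehicle was the same in every setting tried, as was 0 of all tested genes. At an unadjusted p under 0.05 the limma fit with the replicate block gave 535 genes (5.15%), and voom without the block gave 3 genes. In the blocked limma fit Nsdhl had an unadjusted p of 0.043 and an adjusted p of 0.872. The block changed no call. The median log2 fold change of the 29 was 0.071 with quantile normalization, 0.068 with median centring, 0.068 with voom and 0.079 with the replicate block and voom, a pairing of settings chosen after seeing the data. With a library or pair left out it ran from −0.052 to 0.116, and with a whole pair left out from 0.012 to 0.057. Calls between codes ran from 3148 to 5581 genes and from 8 to 19 of the 29 when 1 library was left out, which leaves the codes unequal between treatments. The number of the 29 highest in pair A was 22 to 27 over all settings.

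Signs of single genes near 0 turned. Acat2 was 0.010 with quantile normalization, 0.011 with median centring, 0.033 with the length trend removed and 0.0031 with voom. Cyp51 was 0.023 and Msmo1 0.029 with quantile normalization, and with voom they were 0.0025 and 0.0087. With the length trend removed Msmo1 was 0.022, Srebf2 −0.016 and Fasn −0.033. Acly was 0.039 with quantile normalization and 0.0037 with voom. With 1 library or 1 pair left out, log2 fold changes of single genes ran from −0.22 to 0.22 for Acat2, −0.050 to 0.19 for Hmgcs1, −0.13 to 0.00078 for Mvk, −0.14 to 0.027 for Pmvk, −0.070 to 0.16 for Mvd and −0.029 to 0.25 for Idi1. The range was −0.084 to 0.10 for Fdps, −0.11 to 0.11 for Fdft1, −0.045 to 0.15 for Sqle, −0.11 to 0.30 for Lss, −0.092 to 0.033 for Cyp51 and −0.083 to 0.29 for Tm7sf2. Further ranges were −0.052 to 0.036 for Msmo1, −0.056 to 0.23 for Ebp, −0.029 to 0.25 for Sc5d, −0.10 to 0.25 for Dhcr7, −0.095 to 0.19 for Srebf1 and −0.076 to 0.066 for Srebf2. They ran from −0.065 to 0.075 for Insig1, −0.19 to 0.0063 for Insig2, −0.40 to 0.46 for Stard4, −0.097 to 0.054 for Acly and −0.082 to 0.20 for Fasn. These fits had no block, so leaving out 1 library left the codes unequal between treatments. Differences between pairs then entered the estimate. Acat2 was −0.22 without the Chrdl1 library of pair A and 0.22 without the vehicle library of pair A. With a whole pair left out Acat2 ran from −0.023 to 0.0055. The cause of the other changes of sign was not tested.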
